A study of Mus musculus with 8 samples.

Results

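STAT3 loss was examined in donor CD8+ T cells that had been taken from the spleen of mice after allogeneic hematopoietic cell transplantation (HCT). The comparison rests on 4 of the 8 RNA-Seq libraries of the series, 2 of STAT3-/- and 2 of WT CD8+ T cells, chosen by their labels and not by any measured value. All 12428 genes that passed a filter on low counts, of 25078 gene rows, entered the test. The other 4 libraries, of CD4+ T cells sorted from the same kind of recipients, shared the fit and so entered the estimate of the spread behind each test. Their values are otherwise given below only for comparison with CD8+ T cells. Lethally irradiated BALB/c mice were given T cell-depleted bone marrow of WT C57BL/6 donors, in all groups, plus T cells of WT or STAT3-/- C57BL/6 donors, and donor T cells (H-2Kb+ TCRβ+) carrying CD8 were sorted on day 6 after HCT. The STAT3-/- donors, labelled STAT3ko, were Stat3 fl/fl mice with a Cre recombinase under Cd4 regulatory sequences, so that Stat3 is deleted during T cell development in the thymus and in CD8+ as well as CD4+ T cells. Each library pooled cells of 3 recipients per the study's methods. The study reports severe acute graft-versus-host disease after WT T cells, and only a mild and passing form after STAT3-/- T cells. Donor genotype and disease of the recipient thus changed together, and their parts in the results cannot be told apart. The age of the animals is not given in the sources used here.

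STAT3 is a transcription factor that waits in the cytoplasm until a Janus kinase (JAK) bound to a cytokine receptor phosphorylates it. IL-6, IL-10, IL-21, IL-23, IL-27 and the IL-6-like cytokines LIF and oncostatin M signal through it, and among the genes that it turns on is Socs3, whose product shuts the receptor down again. In T cells STAT3 is known for its part in IL-17-producing and follicular helper programs and in the memory of CD8+ T cells.

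Values below are CPM (read counts scaled to a common library size, with TMM factors), given for replicates 1 and 2 of each group in that order. Stat3 itself (chr11:100886806-100939540, mm10) stood at 431 and 436 CPM in WT and 119.7 and 143 CPM in STAT3-/- cells. The labels and the targeted gene thus went together in all 4 libraries (log2 fold change -1.72, SE 0.12, adjusted p = 0.00536 by the edgeR quasi-likelihood test with Benjamini-Hochberg adjustment). The counts cover the whole gene, so reads from exons that the deletion leaves in place are included, and Stat3 shares exon bases with Stat5a on the other strand in the GENCODE annotation. Cd8a stood at 899 and 984 CPM in WT and 819 and 941 CPM in STAT3-/- cells, and Cd4 at 1.04 and 6.61 CPM in WT and 1.64 and 8.16 CPM in STAT3-/- cells. Cd4 was higher in replicate 2 of both genotypes, and neither gene was called. Total counts of the 4 libraries ranged from 21112839 to 23282757. Markers of other cell types were summed as CPM of total counts, without TMM, and no marker of any of the 9 lists was called. The sums overlapped between the genotypes for 11 B cell genes (45.9 and 62.8 in WT, 38.4 and 72.2 in STAT3-/-) and 19 macrophage or dendritic cell genes (322 and 481 in WT, 275 and 366 in STAT3-/-). Itgax, which CD8+ T cells also express, made up most of the latter (272 and 239 in WT, 207 and 160.2 in STAT3-/-), while macrophage genes were higher in replicate 2 of both genotypes, with C1qa at 1.03 and 22.9 in WT and 2.32 and 16.4 in STAT3-/- and Csf1r at 0.558 and 18.7 in WT and 1.75 and 15.8 in STAT3-/-. The sums did not overlap for 12 neutrophil or myeloid progenitor genes (9.75 and 25.05 in WT, 6.30 and 8.41 in STAT3-/-) or for 10 liver or stroma genes (164.8 and 220.1 in WT, 142.1 and 148.6 in STAT3-/-, nearly all of it Pecam1). The part of such cells in the results was not tested. The sum of 10 pancreatic digestive enzyme genes was 76.9 CPM in STAT3-/- replicate 2, against 4.40 to 7.65 in the other libraries.

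Of the genes tested, 257 differed between STAT3-/- and WT CD8+ T cells, which is 2.07% of them. They comprised 166 that were higher (1.34%) and 91 that were lower (0.732%) in STAT3-/- cells. The lower genes moved further. In that direction 51 of 91 changed at least 2-fold and 19 at least 4-fold, with a median size of 1.11 on the log2 scale, against 46 and 6 of 166 and a median of 0.79 among the higher genes. The count of calls leaned on every library, since 34 genes were called without WT replicate 1, 11 without WT replicate 2, 7 without STAT3-/- replicate 1 and 8 without STAT3-/- replicate 2. Leaving out STAT3-/- CD4+ replicate 1 or 2, which share in the estimate of the spread, left 72 and 74. The 4 genes called whichever CD8+ library was left out were Stat3, Il1r1, Ifi209 and Ifi213. In the 4 CD8+ libraries fitted alone, 37 genes were called. All 257 kept their direction in each of these fits that gave them a value. That was nearly fixed in advance, because all 166 higher and all 91 lower genes had no overlap between the groups. The kept direction is therefore no support for the calls. Groups of 2 against 2 often separate, and 49.7% of all genes tested had no overlap between the groups, so the absence of overlap is not used as support.

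The change followed the base composition of the transcripts. When the tested genes were ranked by the GC content of their transcripts and split into 4 equal classes, in the lowest class (median 42.0% GC), 134 were called higher and 12 lower, with a median log2 fold change of 0.22 over all 3058 genes. In the highest class (median 57.0% GC), 0 were called higher and 41 lower, and the median was -0.15. Across genes the correlation of the log2 fold change with GC content was -0.31 (Pearson's r, a description, since genes are not independent replicates). Each library's deviations from the mean of the CD8+ libraries also followed GC content, with r of 0.31 and 0.19 in the WT and -0.15 and -0.37 in the STAT3-/- libraries. With a smooth trend on GC content and exon length removed from each library, 110 genes were called, 49 higher and 61 lower, and they included 43 of the 166 and 52 of the 91. This setting was added after seeing the data. The part of GC content in the results below was not tested, and values after removal of the trend are therefore given beside the gene groups.

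**Figure D1:**
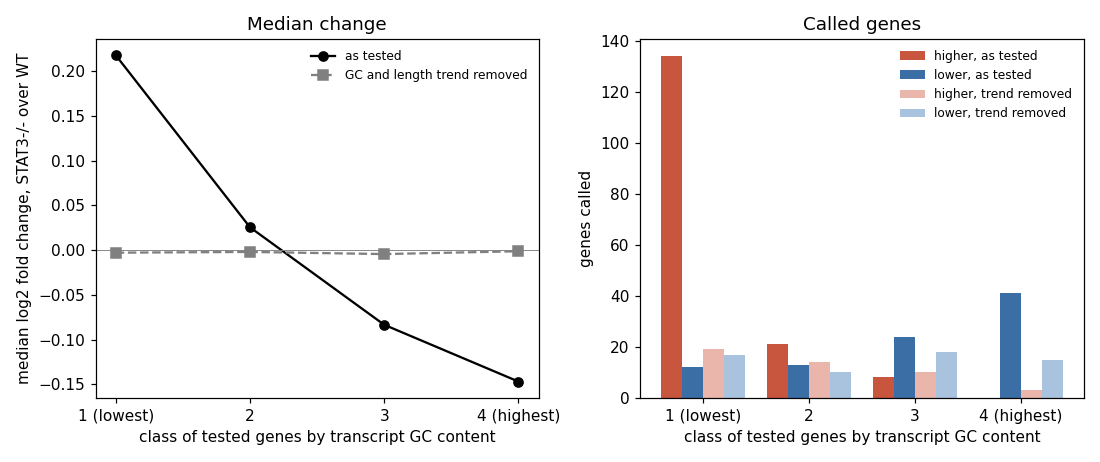
The left panel plots the median log2 fold change (STAT3-/- over WT CD8+ T cells) over all tested genes in each of 4 equal classes of transcript GC content, as tested (circles) and with the GC and length trend removed (squares). The right panel counts the genes called higher (red) and lower (blue) per class, dark as tested and pale with the trend removed. The median falls from 0.22 in the lowest to -0.15 in the highest class, and the 134 genes called higher in the lowest class become 19 without the trend.

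Feedback and target genes of STAT3 were called in 1 direction only in STAT3-/- CD8+ T cells. Of 33 such genes on a list written from knowledge of the pathway, 9 were lower, 0 were higher, and 25 lay below 0, with a median log2 fold change of -0.49, where the median of all genes tested was -0.01. The median stayed between -0.63 and -0.39 when each CD8+ library was left out in turn and was -0.37 with the GC trend removed, where 5 of the 9 calls remained and Il17a, Osm, Socs3 and Pim2 were not called (adjusted p = 0.0583, 0.0686, 0.102 and 0.0812). The list was written with earlier results of these data known, so its count is a description.

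Il1r1 (chr1:40225080-40316177), the signalling receptor for IL-1, had the lowest fitted log2 fold change of all called genes. Its level was 7.52 and 10.6 CPM in WT and 0.0965 and 0.496 CPM in STAT3-/- cells (log2 fold change -4.88, SE 0.43, adjusted p = 0.00847), and the fold is imprecise because its STAT3-/- counts were 2 and 11. Il17a, the cytokine that names IL-17-producing T cells, stood at 10.1 and 4.72 CPM in WT and 1.01 and 0.271 CPM in STAT3-/- cells (log2 fold change -3.53, SE 0.64, adjusted p = 0.0412), with replicates that differed over 2-fold within each genotype. Both genes were low in CD8+ T cells to begin with. Il23r, a receptor chain that supports the same program, was 6.44 and 9.14 CPM in WT and 1.30 and 3.29 CPM in STAT3-/- cells, and missed the threshold (adjusted p = 0.0811).

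Cytokines of the IL-6 family fell too. Lif was 21.8 and 16.7 CPM in WT and 4.003 and 2.98 CPM in STAT3-/- cells (log2 fold change -2.47, SE 0.38, adjusted p = 0.027), and Osm, its neighbour on chromosome 11, was 20.7 and 17.1 CPM in WT and 9.07 and 7.49 CPM in STAT3-/- cells (log2 fold change -1.19, SE 0.22, adjusted p = 0.0401). Il21, a cytokine that itself signals through STAT3, was 18.2 and 19.03 CPM in WT and 8.54 and 9.34 CPM in STAT3-/- cells (log2 fold change -1.06, SE 0.13, adjusted p = 0.0155). In contrast, Il10 was not called and was higher in both STAT3-/- libraries, at 53.9 and 31.6 CPM in WT and 104 and 88.2 CPM in STAT3-/- cells (adjusted p = 0.0897).

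Inside the cell, Bcl3, an atypical IκB protein that partners NF-κB, was 42.4 and 35.6 CPM in WT and 9.02 and 8.53 CPM in STAT3-/- cells (log2 fold change -2.15, SE 0.17, adjusted p = 0.00536). Bcl6, a transcriptional repressor of follicular helper and memory T cells, was 9.94 and 13.5 CPM in WT and 2.31 and 4.15 CPM in STAT3-/- cells (log2 fold change -1.85, SE 0.28, adjusted p = 0.0257). Socs3, the feedback inhibitor of IL-6-type receptors, was 163 and 206 CPM in WT and 56.04 and 82.4 CPM in STAT3-/- cells (log2 fold change -1.41, SE 0.23, adjusted p = 0.0292). Pim2, a survival kinase, was 64.3 and 68.9 CPM in WT and 43.5 and 43.03 CPM in STAT3-/- cells (log2 fold change -0.62, SE 0.11, adjusted p = 0.0414). Other listed genes did not pass. Batf was 175 and 178 CPM in WT and 140.1 and 114 CPM in STAT3-/- cells and Junb 553 and 526 CPM in WT and 372 and 468 CPM in STAT3-/- cells, while the survival gene Mcl1 differed little, at 446 and 475 CPM in WT and 458 and 485 CPM in STAT3-/- cells. Counts of Bcl3, Bcl6 and Il21 are uncertain to the extent that each shares exon bases with an annotated gene on the other strand, because whether the counting used strand is not given in the sources used here.

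The promoters of a few of these genes hold the letters that STAT dimers favour. The spaced palindrome TTCNNNGAA was searched on both strands in a window from 250 bases before to 50 after the start of each gene (RefSeq, GRCm38.p6), available for 9838 of the tested genes. It was present in 12.1% of 66 promoters of genes called lower, in 8.21% of 134 of genes called higher and in 7.03% of all tested. Of the genes that fell by more than 2-fold with a match upstream of the start, the stretches of Bcl6, Socs3 and Plscr1 are shown, and that of Ttbk1, whose match begins 223 bases before the start, is not. Capitals mark the match, which begins 118, 154 and 90 bases before the start.
Bcl6 (chr16:23988932-23989000, minus strand): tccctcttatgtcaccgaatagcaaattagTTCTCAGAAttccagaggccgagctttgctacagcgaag
Socs3 (chr11:117969482-117969550, minus strand): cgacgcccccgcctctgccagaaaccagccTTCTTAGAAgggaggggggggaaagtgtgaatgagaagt
Plscr1 (chr9:92250074-92250142, plus strand): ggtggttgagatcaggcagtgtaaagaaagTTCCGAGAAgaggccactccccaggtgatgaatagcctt
A match describes the letters only. Plscr1, a phospholipid scramblase, was 48.02 and 63.9 CPM in WT and 21.5 and 22.8 CPM in STAT3-/- cells (log2 fold change -1.34, SE 0.23, adjusted p = 0.0331).

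Csgalnact1 and Chst11, genes of chondroitin sulfate synthesis, and Fam20a, from the family of a linker kinase, were called lower. Their list was written with earlier results of these data known, so its count is a description. Of all genes tested 0.732% were called lower. On a list of 26 chondroitin and heparan sulfate genes, 23 were tested, 3 were called lower, 0 higher, and 19 lay below 0 (median -0.32, and -0.19 with the GC trend removed, where the same 3 were called). Csgalnact1, which starts and extends chondroitin chains on the linker sugar, was 4.75 and 6.57 CPM in WT and 0.145 and 0.451 CPM in STAT3-/- cells (log2 fold change -4.20, SE 0.38, adjusted p = 0.00847), on STAT3-/- counts of 3 and 10. Chst11, a chondroitin 4-O-sulfotransferase, was 135 and 111 CPM in WT and 33.5 and 28.7 CPM in STAT3-/- cells (log2 fold change -1.98, SE 0.21, adjusted p = 0.0106). Fam20a, a pseudokinase of the family whose member Fam20b phosphorylates the linker, was 17.98 and 14.1 CPM in WT and 2.94 and 3.83 CPM in STAT3-/- cells (log2 fold change -2.24, SE 0.26, adjusted p = 0.014). Fam20b and the chain-extending enzyme Chsy1 did not differ in this way, with log2 fold changes of 0.06 and -0.25, and the heparan sulfate enzyme Ndst1 stood at -0.45 (adjusted p = 0.0873).

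Some transcription factors of T-cell differentiation were lower as well. Of 39 tested lineage and differentiation factors 4 were called, all lower, while 21 lay above 0 and the median of the list was 0.02. With the GC trend removed the median was 0.06 and 3 were called, without Tox2 (adjusted p = 0.0873). Satb1, a chromatin organizer of thymocytes and T cells, was 281 and 309 CPM in WT and 137 and 129 CPM in STAT3-/- cells (log2 fold change -1.15, SE 0.12, adjusted p = 0.0104). Tcf7, which encodes TCF1, a factor of stem-like memory CD8+ T cells, was 285 and 386 CPM in WT and 141 and 168 CPM in STAT3-/- cells (log2 fold change -1.12, SE 0.16, adjusted p = 0.0251). Tox2 was 47.5 and 46.6 CPM in WT and 21.4 and 29.4 CPM in STAT3-/- cells (log2 fold change -0.89, SE 0.17, adjusted p = 0.0476), and Bcl6, described above, was the fourth. Tox, its relative in exhausted T cells, moved the other way without passing, at 274 and 246 CPM in WT and 351 and 424 CPM in STAT3-/- cells (adjusted p = 0.117).

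Among the killing machinery a single gene was called of 22 tested. Gzmb, which encodes the protease granzyme B, was the most abundant of all genes called lower, at 3384 and 2914 CPM in WT and 1557 and 1355 CPM in STAT3-/- cells (log2 fold change -1.11, SE 0.12, adjusted p = 0.0119), or 46.2% of the WT mean. Prf1, the pore-forming perforin, was 446 and 328 CPM in WT and 242 and 246 CPM in STAT3-/- cells without passing (adjusted p = 0.0717), and Gzmk, another granzyme, was 156 and 132 CPM in WT and 296 and 206 CPM in STAT3-/- cells (adjusted p = 0.0635). The median of the 22 genes was -0.01, also with the GC trend removed, where Gzmb was still called.

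Lists of checkpoint receptors, costimulatory receptors and ligands, and antigen-receptor signalling genes gave 1 call each. Of all genes tested 2.07% were called. In these lists 10 of 15, 14 of 20 and 27 of 38 tested genes lay below 0, against 6322 of all 12428. The list medians were -0.17, -0.20 and -0.10, and -0.19, -0.14 and -0.11 with the GC trend removed. The checkpoint receptor Lag3 was 328 and 268 CPM in WT and 173 and 187 CPM in STAT3-/- cells (log2 fold change -0.72, SE 0.12, adjusted p = 0.0338), the 1 call among 15 tested, and it was not called with the GC trend removed (adjusted p = 0.11). The inhibitory receptor Pdcd1, which encodes PD-1, overlapped between the groups at 592 and 418 CPM in WT and 494 and 441 CPM in STAT3-/- cells. Tnfrsf25, a costimulatory receptor for TL1A, was 12.02 and 15.2 CPM in WT and 4.39 and 5.59 CPM in STAT3-/- cells (log2 fold change -1.45, SE 0.17, adjusted p = 0.0144), and Cd6, a scavenger-type receptor that tunes antigen-receptor signalling, was 226 and 254 CPM in WT and 149 and 125 CPM in STAT3-/- cells (log2 fold change -0.81, SE 0.12, adjusted p = 0.0257). Icos was 646 and 797 CPM in WT and 373 and 507 CPM in STAT3-/- cells and did not pass (adjusted p = 0.109).

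**Figure D2:**
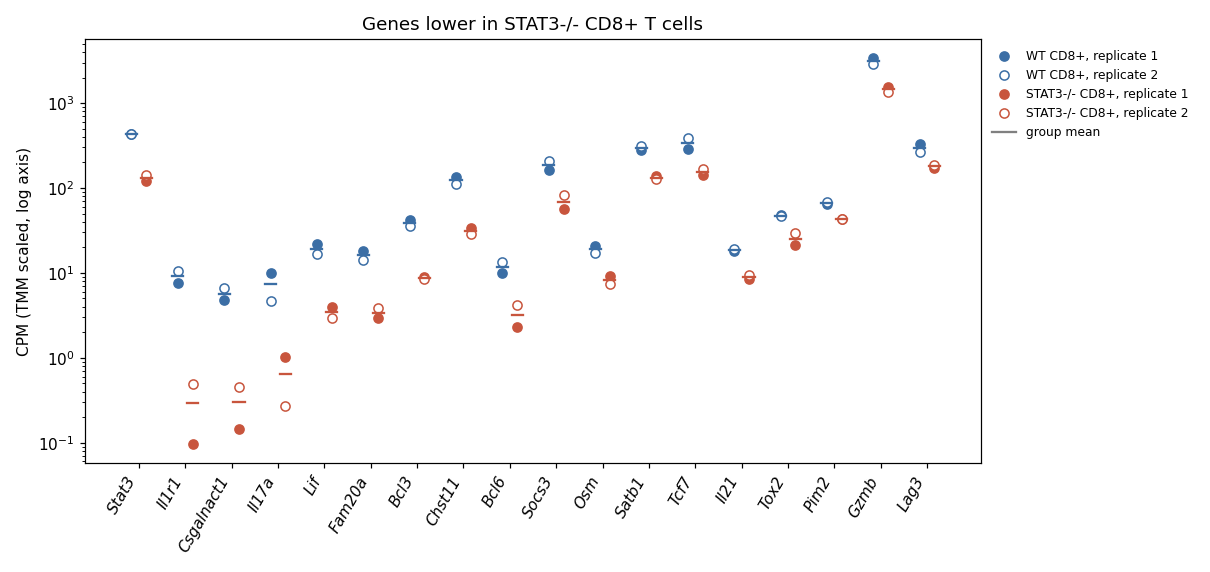
CPM (log axis) of Stat3 and 17 genes called lower in STAT3-/- CD8+ T cells, by library, with WT in blue and STAT3-/- in red, replicate 1 filled and replicate 2 open, and bars at the group means. The STAT3-/- points lie below the WT points for each gene, from Il1r1 at 0.0965 and 0.496 CPM to Gzmb at 1557 and 1355 CPM.

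Most of the listed genes that interferons induce were higher in STAT3-/- CD8+ T cells. In the first of 3 lists, 8 of 12 tested Ifi200 family genes were called higher and 10 lay above 0 (median log2 fold change 1.11). For guanylate-binding proteins and immunity-related GTPases, 7 of 17 genes were called higher and 16 lay above 0 (median 0.69). Of 48 antiviral genes 10 were called higher and 42 lay above 0 (median 0.55). Over all 12428 genes tested 1.34% were called higher and 6102 lay above 0. No gene of these lists was called lower. The lists were written with earlier results of these data known and do not hold every gene that interferons induce. Plscr1, called lower above, is on none of them. Leaving out each CD8+ library kept the medians between 1.03 and 1.30, between 0.59 and 0.87, and between 0.50 and 0.57. Their transcripts are poor in GC (list medians 40.2%, 43.6% and 47.5%, against 49.6% for all tested). With the GC trend removed the medians were 0.87, 0.64 and 0.52, and 5, 5 and 9 genes were called, not including Ifi211, Ifi214, Mndal, Gbp7, Gbp8, Samd9l and Phf11b.

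The Ifi200 genes lie side by side on chromosome 1 and encode nuclear and cytosolic proteins with a DNA-binding HIN domain. All 8 called members sit between 170000001 and 175000000, where they make up all but 1 of the 9 calls among 60 genes tested. Ifi213 was 29.2 and 36.05 CPM in WT and 96.2 and 104 CPM in STAT3-/- cells (log2 fold change 1.62, SE 0.12, adjusted p = 0.00536). Ifi209 was 76.4 and 76.8 CPM in WT and 215 and 194 CPM in STAT3-/- cells (log2 fold change 1.42, SE 0.10, adjusted p = 0.00536). Ifi208 was 45.04 and 52.1 CPM in WT and 113 and 106 CPM in STAT3-/- cells (log2 fold change 1.17, SE 0.11, adjusted p = 0.00847), and Ifi203, the most abundant, was 214 and 197 CPM in WT and 433 and 446 CPM in STAT3-/- cells (log2 fold change 1.09, SE 0.12, adjusted p = 0.0119). Ifi214, Ifi211, Ifi206 and Mndal were called with log2 fold changes of 1.48, 1.14, 0.99 and 0.73. Aim2, which senses cytosolic DNA for the inflammasome, was the exception among abundant members, at 38.2 and 56.8 CPM in WT and 30.96 and 36.9 CPM in STAT3-/- cells (adjusted p = 0.288). These genes are close copies of each other, so reads could be split or lost between them by the counting.

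The GTPases of cell-autonomous defence were led by Gbp6, at 7.43 and 12.8 CPM in WT and 37.95 and 45.02 CPM in STAT3-/- cells (log2 fold change 2.03, SE 0.27, adjusted p = 0.0187). Gbp7 was 221 and 209.8 CPM in WT and 351 and 380.2 CPM in STAT3-/- cells (log2 fold change 0.76, SE 0.11, adjusted p = 0.0227), and Irgm1, a regulator of the immunity-related GTPases, was 67.8 and 80.6 CPM in WT and 122 and 128 CPM in STAT3-/- cells (log2 fold change 0.75, SE 0.12, adjusted p = 0.0272). Gbp3, Gbp8, Igtp and Irgm2 were called with log2 fold changes of 0.61 to 0.88. The more abundant Gbp9, at 78.8 and 122 CPM in WT and 118 and 147 CPM in STAT3-/- cells, overlapped between the groups.

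Among antiviral genes, Ifit1bl1 was 10.5 and 11.96 CPM in WT and 47.5 and 31.3 CPM in STAT3-/- cells (log2 fold change 1.81, SE 0.21, adjusted p = 0.014), and Ifit1, which binds foreign RNA ends, was 6.96 and 8.59 CPM in WT and 18.5 and 21.8 CPM in STAT3-/- cells (log2 fold change 1.37, SE 0.22, adjusted p = 0.0292). Ifi27l2a was 59.3 and 61.7 CPM in WT and 210.2 and 174 CPM in STAT3-/- cells (log2 fold change 1.67, SE 0.15, adjusted p = 0.00847). Usp18, which removes ISG15 and damps the type I interferon receptor, was 2.68 and 3.79 CPM in WT and 8.44 and 8.53 CPM in STAT3-/- cells (log2 fold change 1.39, SE 0.26, adjusted p = 0.0452). Rtp4, Samd9l, Trim30a, Xaf1, Phf11b and Slfn1 were the other calls, with log2 fold changes of 0.75 to 1.36. Zbp1 lay at the threshold with an adjusted p of 0.0505 and a log2 fold change of 0.61. Of 11 tested STAT and JAK family genes 7 lay above 0 (median log2 fold change 0.14, highest 0.69). Besides Stat3, called lower, 1 of the 11 was called higher, where 1.34% of all genes tested were called higher. Stat5a and Jak3 fell without passing. Stat5a, beside Stat3 on chromosome 11, was 104 and 109 CPM in WT and 78.3 and 75.2 CPM in STAT3-/- cells (adjusted p = 0.0596, edgeR). Jak3, the kinase of the common gamma chain, was 209.9 and 158 CPM in WT and 98.4 and 92.3 CPM in STAT3-/- cells (adjusted p = 0.0635, edgeR). Of 159 tested genes within 5 Mb of Stat3, only Tanc2 was called.

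Interferon response elements repeat the letters GAAA. The motif GAAANNGAA, searched as above, was held by 16 of 20 promoters (80.0%) of the genes called higher on these 3 lists, by 16.7% of 114 promoters of the other genes called higher, by 9.09% of genes called lower and by 7.33% of all tested. Genes entered the lists because interferons induce them, so the share describes the lists and not only these data. The median GC content of the promoters also differed, at 44.5%, 57.8%, 62.7% and 60.7% for the same sets in that order. The part of promoter GC content in the shares was not tested. Stretches of 5 genes are shown because they belong to the most changed lists, with matches on either strand in capitals (as TTCNNTTTC where it lies on the other strand). The match begins 73, 58 and 79 bases before the start in Ifi213, Ifi208 and Ifi214, and at 64 in Irgm2. Ifit1 holds 3 matches, at 109, 103 and 84, of which the first 2 overlap.
Ifi213 (chr1:173599307-173599375, minus strand): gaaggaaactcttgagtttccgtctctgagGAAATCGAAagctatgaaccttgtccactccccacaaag
Ifi208 (chr1:173673577-173673645, plus strand): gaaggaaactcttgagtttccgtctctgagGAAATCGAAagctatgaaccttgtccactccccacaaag
Ifi214 (chr1:173535998-173536066, minus strand): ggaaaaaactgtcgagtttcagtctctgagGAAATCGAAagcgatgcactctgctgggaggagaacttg
Irgm2 (chr11:58214872-58214951, plus strand): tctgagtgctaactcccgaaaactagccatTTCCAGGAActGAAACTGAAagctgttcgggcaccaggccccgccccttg
Ifit1 (chr19:34640750-34640843, plus strand): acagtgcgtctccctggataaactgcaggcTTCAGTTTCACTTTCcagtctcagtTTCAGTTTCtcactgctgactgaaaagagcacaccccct
The stretches of Ifi213 and Ifi208 were the same in all 69 bases, and that of Ifi214 differed from them in 24. In Irgm2 the first capitals are a TTCNNNGAA match.

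**Figure D3:**
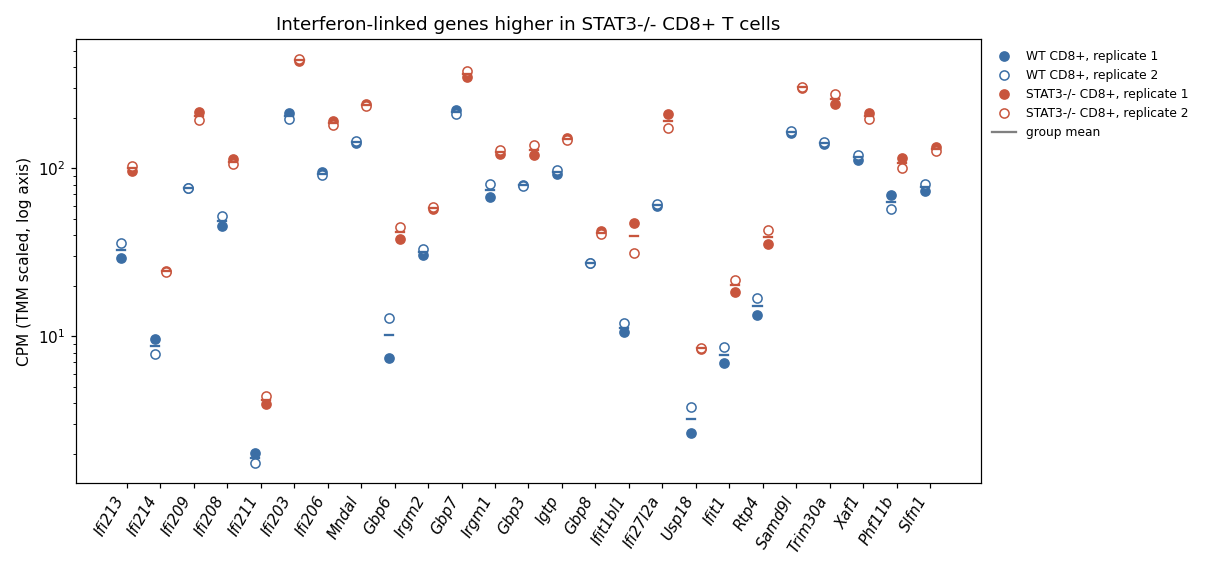
CPM (log axis) of the 25 genes of the 3 interferon lists called higher in STAT3-/- CD8+ T cells, by library, with WT in blue and STAT3-/- in red, replicate 1 filled and replicate 2 open, and bars at the group means. The STAT3-/- points lie above the WT points for each gene, from Ifi211 at 1.77 to 4.42 CPM to Ifi203 at 197 to 446 CPM.

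Some adhesion and effector genes were also called higher. The integrin chains Itga4 and Itgb1, which together form VLA-4, were the most abundant genes called higher. Itgb1 was 1209 and 988 CPM in WT and 2411 and 2010.4 CPM in STAT3-/- cells (log2 fold change 1.01, SE 0.12, adjusted p = 0.0144), and Itga4 was 2500.4 and 2486 CPM in WT and 3605 and 3856 CPM in STAT3-/- cells (log2 fold change 0.58, SE 0.09, adjusted p = 0.0256). They were the 2 calls among 24 listed chemokine receptors and integrins (median 0.06, and 0.02 with the GC trend removed, where Itga4 was not called, adjusted p = 0.0835), and Itgal, the alpha chain of LFA-1, overlapped at 1353 and 1214 CPM in WT and 1227 and 1354 CPM in STAT3-/- cells. Itga3, an integrin chain that the list does not hold, was called lower. It was 33.8 and 26.4 CPM in WT and 14.3 and 15.2 CPM in STAT3-/- cells (log2 fold change -1.03, SE 0.17, adjusted p = 0.0316, edgeR). With the GC trend removed Itga3 was not called (adjusted p = 0.0589). The chemokine Ccl5 was 194 and 207 CPM in WT and 376 and 385 CPM in STAT3-/- cells (log2 fold change 0.92, SE 0.11, adjusted p = 0.0147), and the activating receptor Klrk1, which encodes NKG2D, was 244 and 199 CPM in WT and 432 and 335 CPM in STAT3-/- cells (log2 fold change 0.79, SE 0.15, adjusted p = 0.0456). Klrk1 has one of the most GC-poor transcripts named here (32.7% GC) and was not called with the trend removed (adjusted p = 0.616). The lectin-like receptor gene Klrb1b fell, at 34.8 and 39.2 CPM in WT and 10.2 and 17.4 CPM in STAT3-/- cells (log2 fold change -1.42, SE 0.25, adjusted p = 0.0365).

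Receptors and ligands of cytokines gave 2 calls upward. Il10ra, the ligand-binding chain of the IL-10 receptor, was 138 and 121 CPM in WT and 245 and 205 CPM in STAT3-/- cells (log2 fold change 0.80, SE 0.15, adjusted p = 0.0457). Il15, a cytokine that sustains memory CD8+ T cells, rose from a very low level, at 0.346 and 0.211 CPM in WT and 1.64 and 2.39 CPM in STAT3-/- cells (log2 fold change 2.83, SE 0.47, adjusted p = 0.0316). Its WT counts were 8 and 5, so the fold is imprecise. The peptide transporter Slc15a2 was 10.6 and 15.03 CPM in WT and 38.9 and 64.3 CPM in STAT3-/- cells (log2 fold change 2.01, SE 0.34, adjusted p = 0.0337), and the cell cycle gene Ccnd2, which encodes cyclin D2, was 92.1 and 93.8 CPM in WT and 174 and 154 CPM in STAT3-/- cells (log2 fold change 0.82, SE 0.15, adjusted p = 0.0452). The last 2 were not called with the GC trend removed (adjusted p = 0.0593 and 0.0548).

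A further group among the higher genes was seen only after the values were known. Of 319 tested genes with a Zfp symbol, which mostly encode zinc finger proteins, 22 were called higher and 1 lower. All 35 on chromosome 13 lay above 0 (median 0.79, 8 called), as did 34 of 43 on chromosome 17 (median 0.54, 8 called), against a median of 0.10 for the 241 others. On chromosome 17, Zfp758 was 17.1 and 14.02 CPM in WT and 47.02 and 47.3 CPM in STAT3-/- cells (log2 fold change 1.60, SE 0.15, adjusted p = 0.00847). Their transcripts are poor in GC (median 39.5% on chromosomes 13 and 17). With the GC trend removed the medians were 0.49 and 0.22, and 0 and 3 genes were called. Zinc finger genes in such clusters are near copies, and their reads could be split between them.

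Most gene lists of growth and metabolism gave no calls, but that of Myc and ribosome biogenesis gave 5 among 56 genes. Over all genes tested 2.07% were called, and 0.732% were called lower. Of the 56 genes 46 lay below 0 (median -0.33, and -0.27 with the GC trend removed). The 4 called lower were Rrp12, Tbrg4, Ppan and Slc19a1, with log2 fold changes of -0.57 to -0.67. None of these 4 was called with the trend removed (adjusted p from 0.0692 to 0.139, edgeR). Mxd4, an antagonist of Myc, was called higher at 32.4 and 33.9 CPM in WT and 50.7 and 49.1 CPM in STAT3-/- cells (log2 fold change 0.59, SE 0.11, adjusted p = 0.0429), and it too was not called with the trend removed (adjusted p = 0.0873). No gene was called among 30 of glycolysis (median -0.25), 43 of glutathione and thioredoxin (median -0.19), 33 of fatty acid uptake and oxidation (median 0.00), 40 of proliferation (median 0.20), 21 of class I antigen presentation (median 0.08) and 19 of the BCL-2 family (median -0.08). With the GC trend removed these medians were -0.13, -0.14, -0.05, 0.24, 0.14 and -0.03, again with no call. Since 2.07% of all genes tested were called, lists of this length can hold no call without being less changed than other genes. Of these lists, glycolysis came closest. Ldha, the lactate dehydrogenase of fermenting cells, was 672 and 639.9 CPM in WT and 468 and 448 CPM in STAT3-/- cells (adjusted p = 0.0523), and Hk2, which traps glucose in the cell, was 69.5 and 73.6 CPM in WT and 39.4 and 45.2 CPM in STAT3-/- cells (adjusted p = 0.0525). A gene that misses the threshold with 2 libraries a group is not shown to be equal. More genes of these lists were called when the fit held a term for the replicate number, as given below under the dependence on processing. In such bulk libraries fewer cells of a kind and less RNA per cell cannot be told apart.

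**Figure D4:**
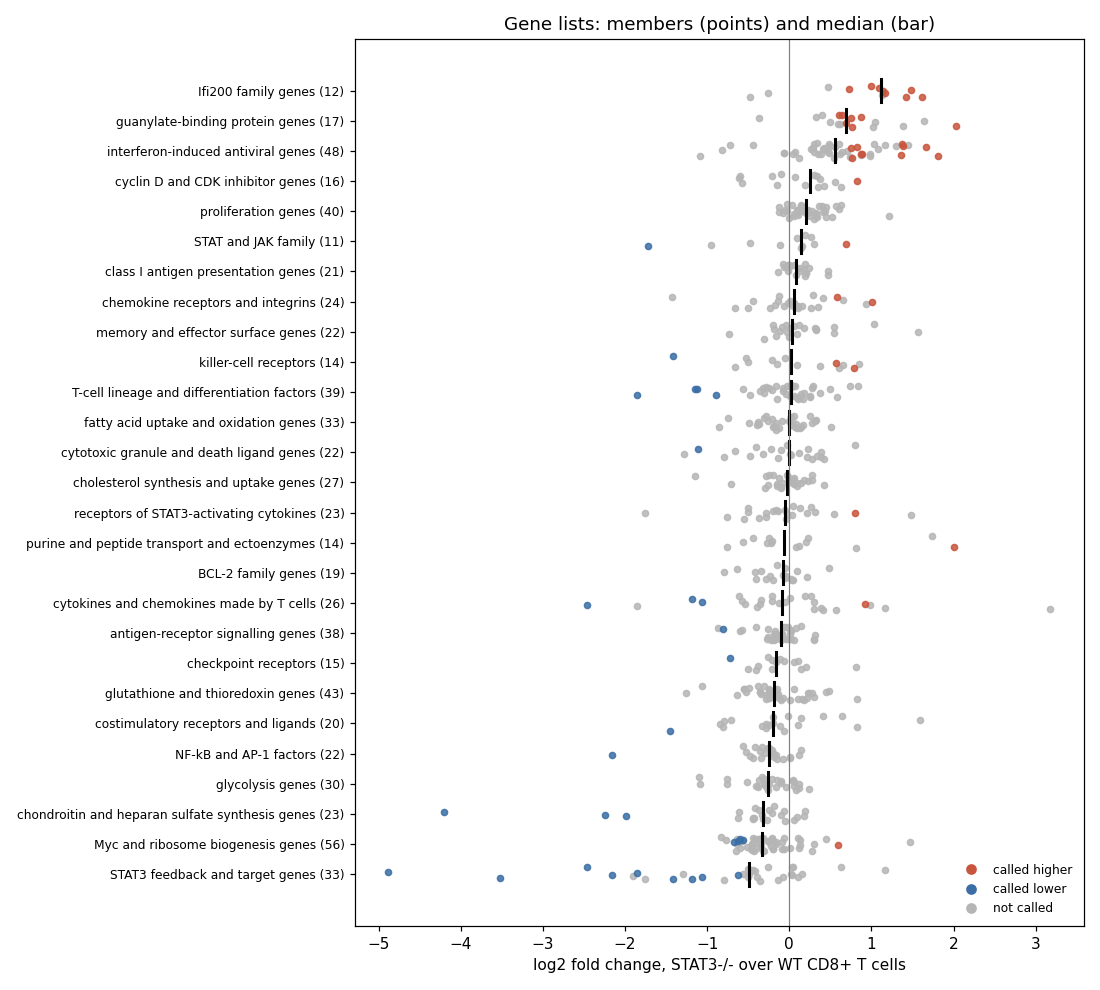
Log2 fold change (STAT3-/- over WT CD8+ T cells) of every tested member of 27 gene lists (points, red called higher, blue called lower, grey not called) with the list median as a bar and the number tested in brackets. The 3 interferon lists lie at the top with medians of 0.55 to 1.11, and the STAT3 feedback and target list lies at the bottom with -0.49.

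CD4+ T cells sorted from the same kind of recipients gave a larger response, with 1444 genes called (11.6%). The 2 cell types mostly moved alike. Among the CD8+ calls, 164 of the 166 higher and 89 of the 91 lower genes kept their sign in the CD4+ libraries, against 9203 of all 12428 genes tested, and 106 and 77 of the called genes were also called there. The groups share no library, but a common estimate of the spread and the same design. Replicate differences of WT CD8+ T cells also correlated with those of WT CD4+ (r = 0.712) and STAT3-/- CD4+ T cells (r = 0.662). Whether same-numbered libraries came from the same recipients is not given in the sources used here. The 2 cell types are therefore not taken as independent, and the agreement of signs is a description. The difference of the effects was tested as an interaction, and 0 genes passed (0%), with a smallest adjusted p of 0.0916, 982 genes at an unadjusted p under 0.05, and 188 called by DESeq2.

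The genes with the smallest p for this difference are given as values, since none of them passed. Ccl5 gave the smallest p for the difference, with log2 fold changes of 0.92 in CD8+ and 2.65 in CD4+ T cells (adjusted p = 0.0916 for the difference, edgeR). Klrk1 gave 0.79 and 2.72 (adjusted p = 0.105). Zfp942 rose by 0.99 on the log2 scale in CD8+ T cells, at 24.9 and 24.5 CPM in WT and 48.3 and 49.3 CPM in STAT3-/- cells, while its log2 fold change in CD4+ T cells was 0.00 (adjusted p = 0.105 for the difference). Tspan5, a tetraspanin gene, was 18.9 and 21.8 CPM in WT and 18.7 and 15.2 CPM in STAT3-/- cells in CD8+ T cells, and its log2 fold changes were -0.27 in CD8+ and -1.88 in CD4+ T cells (adjusted p = 0.105). The list of 40 proliferation genes had a median of 0.20 in CD8+ and 1.11 in CD4+ T cells, with 0 and 32 called higher, and the difference of the lists was not tested.

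Some of the genes lower in STAT3-/- CD8+ T cells were more abundant in CD4+ T cells. In WT cells, CD8+ T cells held 10.1% of the CD4+ level of Il1r1, 8.57% of Csgalnact1, 9.15% of Il21, 11.5% of Bcl6 and 12.8% of Lif, but 0.271% of the level of Cd4 itself and 1.95% of that of Cd40lg, a ligand of activated CD4+ T cells. The share of Cd4 differed between replicates 1 and 2, at 0.0712% and 0.486%. Chst11 and Il17a were more abundant in the CD8+ libraries, at 258% and 597% of the CD4+ level.

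**Figure D5:**
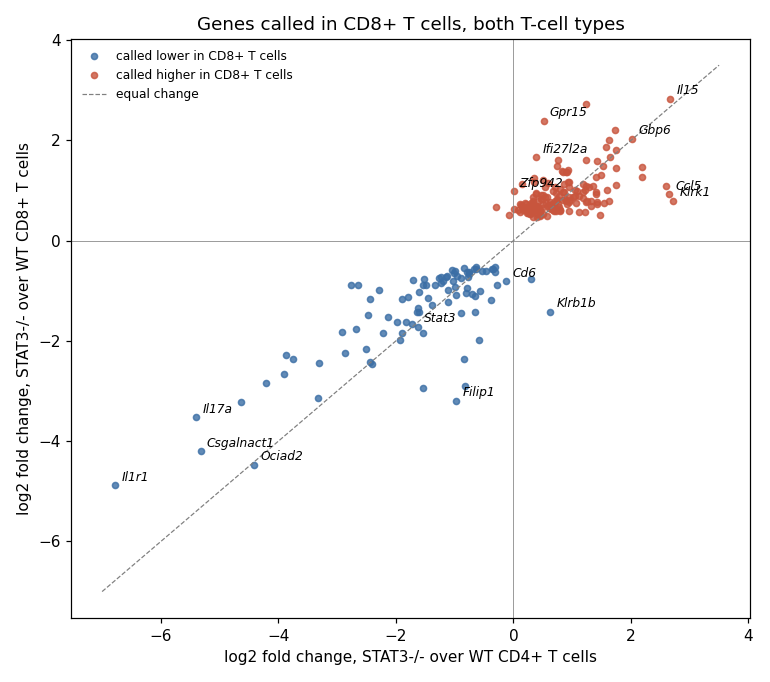
Log2 fold change (STAT3-/- over WT) in CD4+ T cells (x) and CD8+ T cells (y) for the 257 genes called in CD8+ T cells, red where higher and blue where lower, with a dashed line of equal change. Most points share a sign in both cell types (164 of 166 and 89 of 91), and Klrb1b lies in the opposite quadrant.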

How the data were processed

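RNA-Seq libraries of donor CD8+ and CD4+ T cells (8 in all, 2 in each of 4 groups) were grouped by the genotype and cell type in their labels and titles. According to the study's methods, STAR placed single-end reads on mm10 and HTSeq assigned them to RefSeq genes. The authors deposited raw counts per gene, which were the main measurement here, and RPKM values (counts scaled to exon length and library size), which were used for an alternative. Label fields on growth and treatment, which speak of adipogenic cells, were not used, and whether strand entered the counting is not given in the sources used here. Replicates are pools of 3 recipients, so p-values measure the spread between pools.

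Genes were kept by filterByExpr (minimum count 10), scaled by TMM and fitted in all 8 libraries with a mean per group in edgeR 4.0.16 under R 4.3.3 (quasi-likelihood, two-sided, adjusted p under 0.05). SE was derived from the F statistic. Means shown as CPM have no SD beside them because both replicates are given. Counting error is small for most genes, since 3 counts correspond to 0.129 to 0.142 CPM, and this limit covers counting error only. Replicates were distinct libraries, as their counts differed far beyond sampling noise (chi-square per gene 32.9 and 23.0). On simulated data with 12428 genes, the test recovered 83% of 2-fold and 95% of 4-fold changes with 4 false calls. The simulated libraries were independent, held no GC trend and no deviations shared by replicate number, and very low genes were left unchanged. These figures check the code and do not give the error rate of the calls in the real libraries. Alternatives used DESeq2 1.42.0, limma 3.58.1 on log2(RPKM + 1) and log2(RPKM + 0.1), other scaling and filters, and each library left out. GC content was taken from the longest GENCODE transcript of each symbol. Genes named were Stat3, sorting markers, the 15 highest and 15 lowest called genes at or above a mean log2 CPM of 3, the 10 most abundant called in each direction, called genes below that level with at least 4-fold change, called members of each list with the 3 uncalled of smallest p and the 2 most abundant, 5 genes in each direction for the difference between cell types, and those whose promoter is shown. Not every gene that this rule takes is reported here. Genes given only by their log2 fold change (Fam20b, Chsy1, Ndst1) illustrate their list, and Itga3, a called integrin chain outside the lists, was added to those of the rule. Members and lists were chosen with earlier results of these data known. Of the called genes, 253 were found in the GENCODE annotation and 93 share exon bases with another gene.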

Additional observations from a re-analysis of the deposited data

Results flagged for a closer look

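Klrb1b, which encodes a lectin-like receptor of the NKR-P1 family, was lower in both STAT3-/- libraries of CD8+ T cells and higher in both of CD4+ T cells, and passed the test only in the former. In CD8+ T cells it was 34.8 and 39.2 CPM in WT and 10.2 and 17.4 CPM in STAT3-/- cells, a log2 fold change of -1.42 (edgeR, adjusted p = 0.0365). In CD4+ T cells it was 2.05 and 2.69 CPM in WT and 3.35 and 3.98 CPM in STAT3-/- cells, a log2 fold change of 0.63 that did not pass (adjusted p = 0.229, edgeR). The difference between the effects had an adjusted p of 0.155 by the interaction test in edgeR and did not pass. The gene shares exon bases with another annotated gene on the same strand.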

How the results depend on the processing

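The 257 genes called in CD8+ T cells (166 higher, 91 lower) became 885 (567 and 318) with DESeq2, 815 (504 and 311) with the edgeR likelihood-ratio test, 454 (278 and 176) without a filter on low counts, 37 (21 and 16) in the 4 CD8+ libraries alone, and 110 (49 and 61) with the GC and length trend removed. With log2(RPKM + 1) in limma, 110 genes were higher. Total counts in place of TMM gave 142 higher and 105 lower. With a library left out, the counts ranged from 7 to 224 in all, from 4 to 139 higher and from 2 to 87 lower, and the difference between cell types stayed at 0 throughout. With a replicate block, 2258 genes were called (1278 and 980), and with the block and the GC trend 1541 (755 and 786). Same-numbered libraries deviated together (r = 0.619 between the replicate differences of WT and STAT3-/- CD8+ T cells), and library numbers in the titles run on within a replicate number, but the labels do not say what it marks, so this is a hint. Of the lists of growth and metabolism, the block gave 10 calls of glycolysis, 9 of glutathione and thioredoxin, 10 of proliferation and 31 of Myc and ribosome biogenesis. For the difference between CD8+ and CD4+ T cells, 0 genes became 188 with DESeq2, 137 with the likelihood-ratio test, 44 without the filter, 13 with log2(RPKM + 1), 403 with the replicate block and 499 with block and GC trend. Of the 257 genes, 1 changed direction in any of these fits, Rnf138 (0.53, and -0.04 with the GC trend removed). The cause of these changes was not tested, and the part of the smaller number of samples in fits that leave libraries out was not tested either. The GC trend and its combination with the block were added after seeing the data. Depth limits the folds of the lowest genes, since 3 counts are at most 0.142 CPM in the CD8+ libraries and Il1r1, Csgalnact1 and Ociad2 had 2, 3 and 3 counts in STAT3-/- replicate 1.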

Other observations

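Several genes at low levels changed at least 4-fold. Ociad2, a membrane protein gene, was 4.28 and 7.29 CPM in WT and 0.145 and 0.361 CPM in STAT3-/- cells (log2 fold change -4.47, SE 0.45, adjusted p = 0.01, edgeR), and Filip1, a filamin-binding protein gene, was 7.87 and 6.27 CPM in WT and 0.579 and 0.947 CPM in STAT3-/- cells (log2 fold change -3.20, SE 0.41, adjusted p = 0.0167). Filip1 had a log2 fold change of -0.97 in CD4+ T cells (adjusted p = 0.237). In the other direction, Gpr15, a homing receptor for the large intestine, was 0.389 and 0.716 CPM in WT and 3.04 and 2.84 CPM in STAT3-/- cells (log2 fold change 2.40, SE 0.45, adjusted p = 0.0464), with 0.51 in CD4+ T cells (adjusted p = 0.41). The difference between the cell types did not pass for either gene, and Gpr15 was not called with the GC trend removed (adjusted p = 0.0682). Art2a, an ADP-ribosyltransferase gene of T cells, was 0.303 and 0.253 CPM in WT and 1.54 and 1.08 CPM in STAT3-/- cells (log2 fold change 2.22, SE 0.36, adjusted p = 0.0316), and its neighbour Art2b was 16.6 and 10.4 CPM in WT and 46.8 and 43.3 CPM in STAT3-/- cells (adjusted p = 0.0606). Between 100000001 and 105000000 on chromosome 7, Art2a and the 4 tripartite motif genes Trim5, Trim12c, Trim30a and Trim30d made up 5 calls among 44 tested genes, all higher. The 4 Trim genes rose by log2 fold changes of 0.60 to 1.07. Trim5 and Trim30d were not called with the GC trend removed (adjusted p = 0.222 and 0.111). The 4 are close copies, and reads could be split between them.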
